A study of Homo sapiens with 16 samples.

Results

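Messenger RNA was quantified with its ribosome-protected footprints for 10 genes that encode the machinery that cleaves and polyadenylates pre-mRNA. The genes were CPSF1, CPSF2, CPSF3, CPSF4, CPSF6, NUDT21, CSTF1, CSTF2, CSTF3 and PCF11, chosen by name from the transcripts of each table after matching to gene symbols. All 10 had a row among the 10799 transcripts listed for MDA-LM2 and parental cells and among the 8980 listed for the HNRNPC knockdown. The study compared translation between breast cancer cells of low and high metastatic capacity and asked about the RNA-binding protein HNRNPC in the choice of poly(A) site, which the products of these genes carry out.

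Parental MDA-MB-231 cells (MDA-Par) are a triple receptor negative human breast cancer line that metastasises poorly, and MDA-LM2 cells are a derivative of the same line that is highly metastatic to the lungs. The other pair was made from MDA-MB-231 cells that carry the dCas9-KRAB repressor, delivered by lentivirus and kept as a sorted pool. These cells received a control guide (sgControl, written sgCTRL in the labels) or a guide against HNRNPC (sgHNRNPC) with puromycin selection. Both members of this pair therefore express the repressor. All lines were cultured cells, grown in the same medium, and each line gave 2 RNA and 2 footprint samples, 16 altogether. The replicates are described as biological, and p-values measure the spread between these samples only.

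Most eukaryotic mRNAs end where the nascent transcript is cut and a poly(A) tail is added. The cleavage and polyadenylation specificity factor (CPSF) reads the AAUAAA hexamer and makes the cut, the cleavage stimulation factor (CstF) binds U- or GU-rich sequence downstream of it, and mammalian cleavage factor I (CFIm) binds UGUA upstream. Mammalian cleavage factor II (CFIIm) links cleavage to transcription termination. Where a gene has several poly(A) sites, the amounts of these factors are known to bear on which site is used.

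The members' own 3′ ends were examined for the elements these complexes bind, in the annotated transcript of each gene (GENCODE version 44, hg38, sense strand only). The AAUAAA hexamer lay in the last 50 bases of the transcript for 7 of the 10 members, AUUAAA without AAUAAA for 1, and neither for 2. Among 10342 listed 3′ UTRs of at least 50 bases, the shares were 63.7%, 14.9% and 21.4%. CPSF4 (chr7:99438943-99457373, plus strand) was the member with the AUUAAA variant, printed here with NUDT21 (chr16:56429133-56451332, minus strand) and CPSF6 (chr12:69239616-69269939, plus strand). The capitals mark the hexamer, which began 19, 23 and 19 bases before the annotated end.
CPSF4: uaugaaauggAUUAAAgcuuguuuuuuaa
NUDT21: uugucauuucAAUAAAaaauauuugaaaga
CPSF6: guaguguuguAAUAAAcuguuuaaugggg

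Uridine runs are the sequence to which HNRNPC binds, so the members were also searched for C followed by 6 U and for their longest run of U. C followed by 6 U occurred in the 3′ UTR of 4 members, with 10 copies in CPSF2, 4 in PCF11, 3 in NUDT21 and 2 in CSTF1, and in 43.7% of the listed 3′ UTRs. A run of at least 10 U, which can overlap that motif, occurred in 3 members and in 24.7% of the listed 3′ UTRs. UGUA lay in the last 100 bases of 6 members and in 55.6% of the listed 3′ UTRs. A match is a string of letters and no measured binding site. The longest runs are printed with the U run in capitals because they show how far the members differ. CPSF2 (chr14:92121969-92172145, plus strand), CSTF1 (chr20:56392645-56406362, plus strand) and PCF11 (chr11:83156988-83187451, plus strand) held runs of 25, 26 and 11 U, and NUDT21 held 7. CPSF2 also had the longest annotated 3′ UTR of the members, at 10401 bases, and CPSF3 the shortest, at 84.
CPSF2: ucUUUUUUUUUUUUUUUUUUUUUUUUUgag
CSTF1: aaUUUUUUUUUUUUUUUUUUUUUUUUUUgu
PCF11: augggaaaaUUUUUUUUUUUcuuuuuuuga
NUDT21: ugguagaaaagUUUUUUUgguuuuaucucu

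Values are made from read counts per transcript that the authors scaled between libraries, separately for RNA and footprints, and the tables were scaled separately. Whether the footprint counts were also corrected for ribosome stalling is not stated. Recovered RNA reads numbered 7517953 to 8193031 per library for MDA-LM2 and MDA-Par and 5141959 to 6164753 for the knockdown pair, whereas the depth of the footprint (RPF) libraries is unknown. HNRNPC RNA was 2162 and 2146 in sgControl and 1147 and 1183 in sgHNRNPC, which is 54.1% of the control mean. VIM, CD44, AXL and EGFR, which mark the mesenchymal MDA-MB-231 line, lay above the 97th percentile of RNA in both tables, and ESR1, PGR and CDH1 were not among the listed transcripts. ERBB2, whose overexpression the triple receptor negative class lacks, was listed in both tables and lay at the 80.9th percentile for MDA-LM2 and MDA-Par and at the 36.8th for the knockdown pair. The RNA libraries of the tables differed in base composition, as described at the end.

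In MDA-LM2 cells, CPSF4 was called lower in RNA and CPSF1 higher in footprints. For each kind this was no larger a share than that of all genes called in either direction. Each call was lost when some single libraries were left out, as given below. No member passed the test in translational efficiency (TE), the RPF level relative to the RNA level. All 10 members passed the filter, a mean of at least 10 in the RNA and in the RPF libraries. For RNA, 1 of 10 members was called at an adjusted p under 0.05, beside 15.2% of the 8393 genes tested, and it was lower, as were 9.44% of genes. For RPF, 1 of 10 was called, beside 12.0% of genes, and it was higher, as were 5.00% of genes. For TE, 0 of 10 was called, beside 0.0357% of genes, and 0 of 10 reached an unadjusted p under 0.05, beside 5.42% of genes. The share of higher calls among all RNA calls was 38.1%, and 66.6% when the libraries were scaled to equal totals. For RPF these shares were 41.6% and 54.3%. Values without overlap were common over all genes. Both MDA-LM2 values lay above both parental values for 28.5% of genes in RNA and 25.7% in RPF. They lay below for 33.6% and 27.6%. Of the 10 members, 3 lay above and 2 below in RNA, and 4 above and 1 below in RPF.

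**Figure D1:**
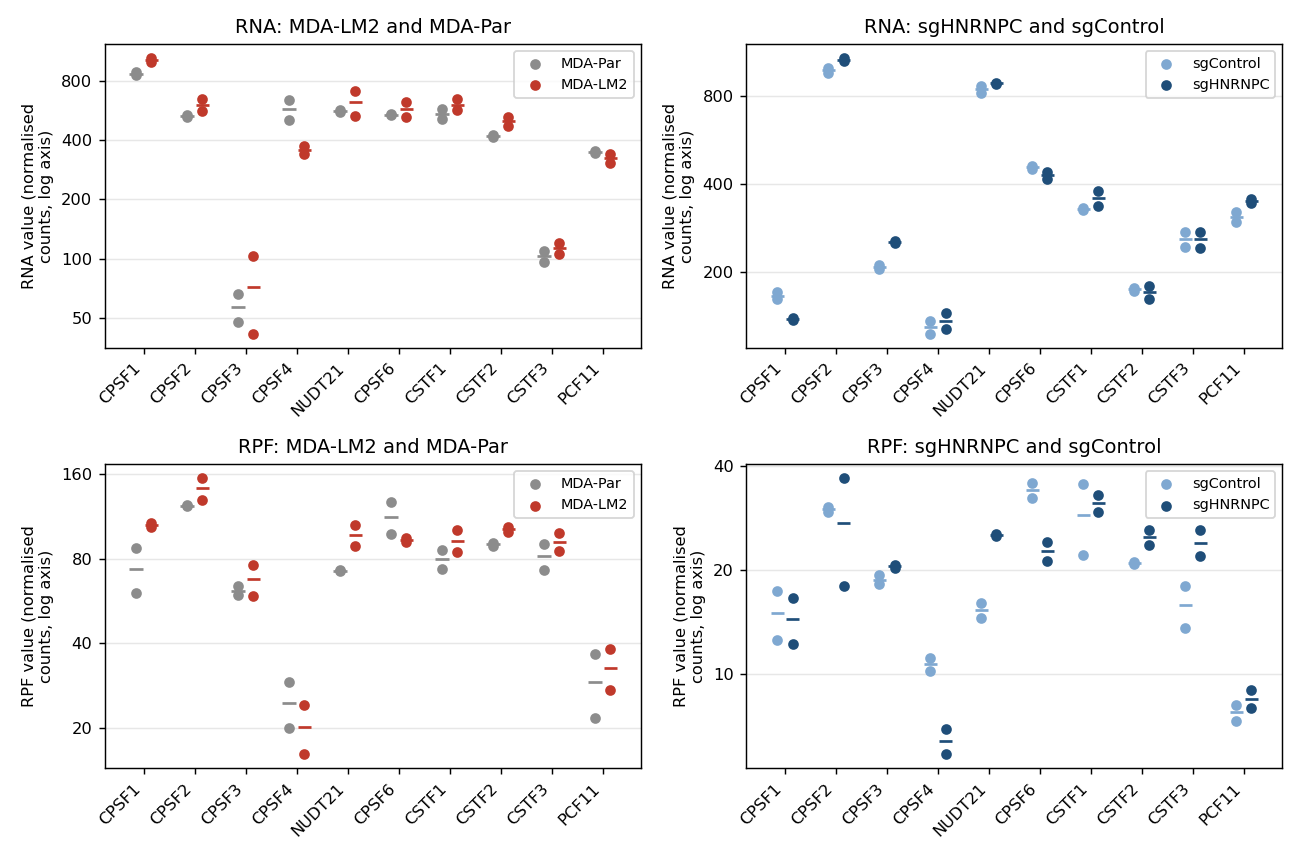
Normalised counts of the 10 members on a log axis for RNA (top) and footprints (bottom) in MDA-Par and MDA-LM2 (left) and sgControl and sgHNRNPC (right). Points are the 2 replicates and bars their means. CPSF4 RNA lay higher in MDA-Par (643 and 509.6) than in MDA-LM2 (375 and 339).

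CPSF4 is a zinc finger subunit of CPSF that contacts the AAUAAA hexamer together with WDR33. Its RNA value was 643 and 509.6 in MDA-Par and 375 and 339 in MDA-LM2. Both MDA-LM2 libraries lay below both parental libraries, and the mean was 61.9% of the parental mean. The log2 change was -0.68 ± 0.15 (SE, n = 2 per line, limma adjusted p = 0.0234). In bulk RNA, fewer cells that express a gene and less RNA per cell cannot be told apart. CPSF4 footprints were 20.1 and 29.2 in MDA-Par and 24.2 and 16.2 in MDA-LM2, so the lines overlapped. The RPF change was -0.28 ± 0.30 and the TE change 0.40 ± 0.33, with a 95% interval of -0.30 to 1.11 and an adjusted p of 0.935. The RNA call was lost without MDA-Par replicate 1, when the change was -0.52 ± 0.24 and the adjusted p 0.251, and it held without each of the other libraries.

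CPSF1 is the large scaffold subunit of CPSF. Its footprints were 60.2 and 87.2 in MDA-Par and 104 and 107 in MDA-LM2. Both MDA-LM2 values were higher, and their mean was 143% of the parental mean. The log2 RPF change was 0.53 ± 0.16 (SE, n = 2 per line, limma adjusted p = 0.0269). The RNA of CPSF1 was 856 and 890.4 in MDA-Par and 1050.4 and 995 in MDA-LM2, also without overlap. That RNA change was 0.23 ± 0.11 and did not pass the test (adjusted p = 0.193). It passed under equal totals (0.40, adjusted p = 0.0355), which moved the RNA median of all genes from -0.02 to 0.15. Without MDA-LM2 replicate 2 the RNA change was 0.27. The TE change was 0.31 ± 0.23 (adjusted p = 0.935). The RPF call was lost without MDA-Par replicate 1 (0.27 ± 0.19, adjusted p = 0.439), without MDA-LM2 replicate 1 (0.56 ± 0.20, adjusted p = 0.0509) and without MDA-LM2 replicate 2 (0.51 ± 0.20, adjusted p = 0.0977).

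CPSF2 and CPSF3 are paralogous metallo-β-lactamase proteins of CPSF, of which CPSF3 is the endonuclease that makes the cut. CPSF2 RNA was 524 and 536 in MDA-Par and 566 and 646 in MDA-LM2, a change of 0.19 ± 0.12 (adjusted p = 0.310). Its footprints were 124 and 123 against 129.6 and 155, a change of 0.20 ± 0.13 (adjusted p = 0.383). Neither passed the test. Both MDA-LM2 values were the higher ones for RNA and for RPF, an order common over all genes. CPSF3 RNA was 47.6 and 66.0 in MDA-Par and 41.3 and 103 in MDA-LM2. The MDA-LM2 replicates lay on either side of both parental values, so its RNA change of 0.22 had an SE of 0.40 and a 95% interval of -0.73 to 1.16. These values rested on 43, 66, 44 and 116 RNA reads, the fewest of any member in each of these libraries, and the counting intervals of the MDA-LM2 replicates, 32.0 to 59.1 and 95.9 to 139 reads (95%, exact Poisson, counting error only), did not meet. CPSF3 footprints were 63.9 and 59.3 against 76.3 and 59.1 and overlapped.

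CFIm joins NUDT21, the subunit that binds UGUA, with CPSF6 or CPSF7, its larger partners. NUDT21 footprints were 73.0 and 72.3 in MDA-Par and 105 and 89.0 in MDA-LM2. Both MDA-LM2 values were higher, at 134% of the parental mean, and the change of 0.41 ± 0.16 did not pass the test (adjusted p = 0.0830). NUDT21 RNA was 559 and 572 against 715 and 530.2 and overlapped, with a change of 0.12 ± 0.16. CPSF6 footprints were 127 and 98.2 in MDA-Par and 91.7 and 95.2 in MDA-LM2, a change of -0.25 ± 0.15 (adjusted p = 0.296) without overlap. CPSF6 RNA was 537 and 542 against 629 and 523 and overlapped, with a change of 0.09 ± 0.13. The TE changes were 0.29 ± 0.23 for NUDT21 and -0.34 ± 0.22 for CPSF6, and neither passed the test (adjusted p = 0.935 and 0.915).

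CstF consists of CSTF1, CSTF2, the subunit with the RNA recognition motif, and CSTF3, which holds the others together. CSTF2 RNA was 427 and 415 in MDA-Par and 475 and 523 in MDA-LM2, a change of 0.24 ± 0.12 (adjusted p = 0.193). Both CSTF2 RNA values in MDA-LM2 were above both parental values, as were its footprints, at 104 and 99.2 against 88.6 and 91.2. The RNA values of CSTF1 (513 and 578 against 647 and 568) and of CSTF3 (96.4 and 109.9 against 105 and 121) overlapped between the lines. Their RPF changes were 0.22 ± 0.16 and 0.18 ± 0.16, and neither passed the test (adjusted p = 0.422 and 0.529). PCF11, the CFIIm subunit that binds the C-terminal domain of RNA polymerase II, had RNA at 351 and 346 in MDA-Par and 308 and 339.6 in MDA-LM2. The change was -0.11 ± 0.12 (adjusted p = 0.570), and its footprints, 36.8 and 21.7 against 27.2 and 38.2, overlapped.

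Over the 10 members, the median log2 change in MDA-LM2 was 0.14 for RNA, 0.18 for RPF and 0.05 for TE, beside -0.02, -0.01 and 0.03 over all genes tested. The RNA change was above 0 for 8 of 10 members and for 47.4% of all genes, and the RPF change for 8 of 10 members and 48.9% of all genes. The changes correlated with the G+C content of the transcript across 8215 genes, with r = -0.27 for RNA, -0.14 for RPF and 0.18 for TE. The difference between the MDA-LM2 RNA replicates did so too (r = -0.39). Genes are not independent replicates, and these correlations are given as descriptions. CPSF1 and CPSF4 had the highest G+C content of the members, 62.3% and 57.4%, and their RNA changes had opposite signs. The part of base composition in the members' changes was not tested. Equal totals moved the RNA median of all genes from -0.02 to 0.15. Relative to that median the RNA change was 0.25 for CPSF1, -0.66 for CPSF4 and -0.09 for PCF11 under both scalings. Equal totals multiplies each library by a constant and so moves all genes nearly alike. The match was thus fixed by the method and is no check of these changes.

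**Figure D2:**
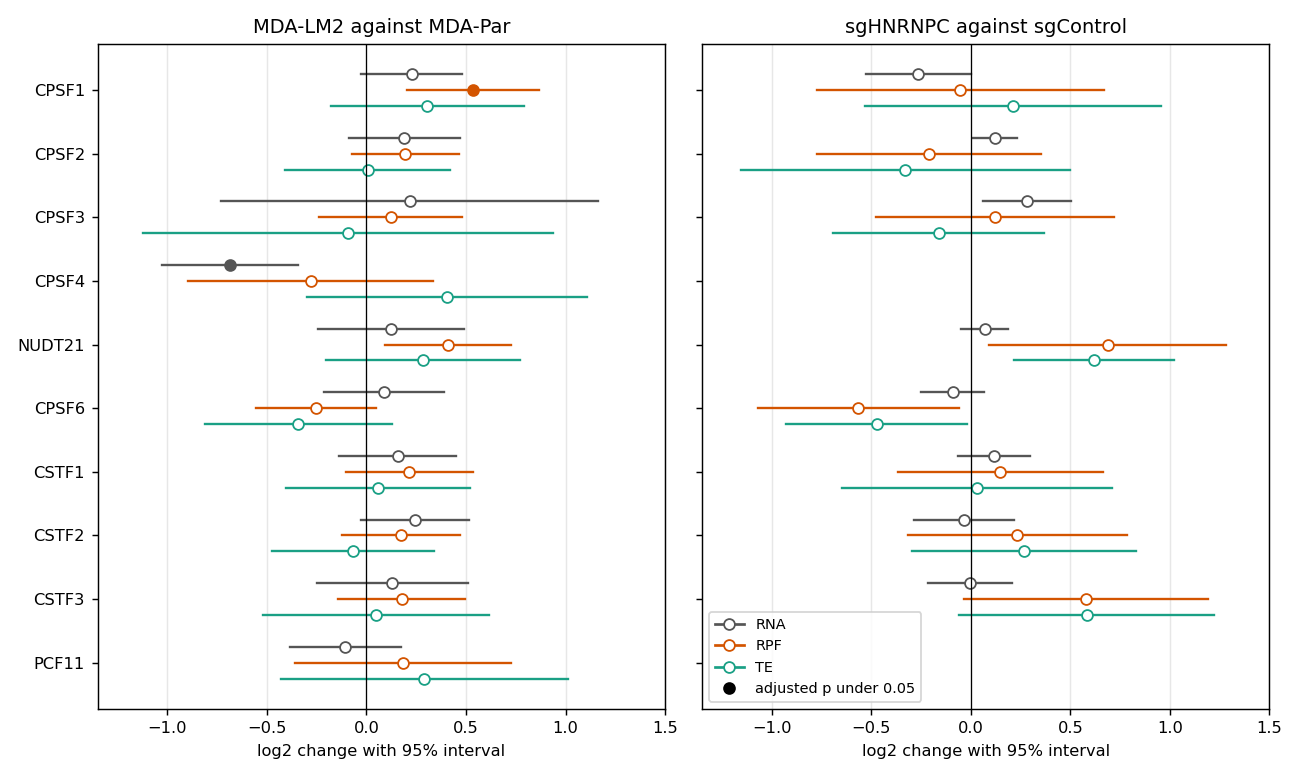
The log2 change of each member (circles) with its 95% interval (lines) for RNA, footprints (RPF) and translational efficiency (TE) in MDA-LM2 against MDA-Par and sgHNRNPC against sgControl. Filled circles passed an adjusted p under 0.05: CPSF4 RNA at -0.68 and CPSF1 RPF at 0.53, both in MDA-LM2. CPSF4 and PCF11 were not tested in the knockdown pair.

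After HNRNPC knockdown, no member passed the test in RNA, RPF or TE. Footprints of HNRNPC, the target itself, were at 65.8% of the control mean and did not pass either (-0.57 ± 0.19, limma adjusted p = 0.467). A missing RPF call is thus no evidence that the footprints of a gene were unchanged. Of the 10 members, 8 were tested, and CPSF4 and PCF11 fell under the filter because their mean RPF value was below 10. For RNA, 0 of 8 members was called, beside 16.0% of the 4283 genes tested, and 2 of 8 reached an unadjusted p under 0.05, beside 27.8% of genes. For RPF, 0 of 8 was called, beside 0.0233% of genes, and 2 of 8 reached that unadjusted p, beside 7.68% of genes. For TE, 0 of 8 was called, beside 0% of genes, and 2 of 8 reached it, beside 7.75% of genes. The share of higher calls among all RNA calls was 29.5%, and 43.2% after quantile normalisation. Values without overlap were again common over all genes. Both knockdown values lay above both control values for 20.2% of genes in RNA and 20.8% in RPF. They lay below for 34.6% and 17.1%. Of the 10 members, tested or not, 5 lay above and 2 below in RNA, and 4 above and 2 below in RPF.

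The members whose TE change had an unadjusted p under 0.05 were both subunits of CFIm, with opposite signs. NUDT21 footprints were 14.6 and 16.1 in sgControl and 25.5 and 25.1 in sgHNRNPC, while its RNA was 866 and 821 against 889 and 880.3. The footprint values did not overlap and their mean was 165% of the control mean, whereas the RNA mean was 105%. The TE change was 0.62 ± 0.18 (SE, n = 2 per group, 95% interval 0.22 to 1.02), with an unadjusted p of 0.00667 in the limma fit, rank 36 of the 4283 genes, and an adjusted p of 0.570. The RPF change was 0.69 ± 0.29 (adjusted p = 0.545). CPSF6 footprints were 32.2 and 35.8 in sgControl and 24.1 and 21.3 in sgHNRNPC, and its RNA was 451 and 463 against 417 and 442. Both kinds of library were lower in sgHNRNPC without overlap, at 66.7% of the control mean for RPF and 93.9% for RNA. The TE change was -0.47 ± 0.20 (95% interval -0.93 to -0.02, adjusted p = 0.626). In this fit the RNA and RPF libraries share an estimate of the spread. The TE errors were therefore below the RPF errors of the same genes, 0.18 against 0.29 for NUDT21 and 0.20 against 0.25 for CPSF6. The TE errors, intervals, unadjusted p and rank may thus be too favourable. With the lysate as a block, the SE was 0.25 for both genes and the adjusted p 0.775 for NUDT21 and 0.793 for CPSF6. Whether the subunits differed from each other was not tested.

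Among the CstF subunits, CSTF3 footprints were 13.6 and 18.0 in sgControl and 26.1 and 21.9 in sgHNRNPC, with RNA at 274 and 244 against 243 and 275. The footprints did not overlap and the RNA did, and the TE change of 0.58 ± 0.28 did not pass the test (95% interval -0.06 to 1.22, adjusted p = 0.640). Leaving out sgControl replicate 1 gave 0.31, and leaving out replicate 2 of that line gave 0.86. CSTF2 footprints were 20.9 and 21.1 against 26.1 and 23.6, with a TE change of 0.27 ± 0.25 (adjusted p = 0.812). CSTF1 footprints were 22.2 and 35.4 against 29.4 and 33.1 and overlapped. The RNA changes of CSTF1 and CSTF2 were 0.12 ± 0.09 and -0.03 ± 0.13.

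Within CPSF, CPSF3 RNA was 212 and 206 in sgControl and 256 and 252 in sgHNRNPC. Both knockdown values were higher, at 122% of the control mean, and the change of 0.28 ± 0.11 did not pass the test (adjusted p = 0.0675). It passed after quantile normalisation (0.31 ± 0.10, adjusted p = 0.0494) and in limma voom on recovered reads (0.32 ± 0.11, adjusted p = 0.0363), an alternative chosen after seeing the data. CPSF2 RNA was 1000.3 and 962 against 1051 and 1082, a change of 0.12 ± 0.06 (adjusted p = 0.139), and it passed only in voom (0.15 ± 0.06, adjusted p = 0.0482). CPSF1 RNA was 171 and 162 against 138 and 139, at 83.2% of the control mean, a change of -0.26 ± 0.13 (adjusted p = 0.183). Footprints of CPSF1 (12.6 and 17.5 against 12.2 and 16.6) and CPSF2 (30.5 and 29.5 against 36.9 and 18.0) overlapped between the groups. CPSF3 footprints were 18.2 and 19.3 against 20.3 and 20.7, a change of 0.12 ± 0.29.

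The untested members are given by their values alone. CPSF4 footprints were 11.2 and 10.3 in sgControl and 5.87 and 6.96 in sgHNRNPC, with RNA at 123 and 137 against 145 and 128. Its knockdown footprints lay below both control values, at 59.9% of their mean, and its RNA overlapped. PCF11 footprints were 7.35 and 8.16 against 7.99 and 9.02, with RNA at 321 and 298 against 345 and 355. Over the 8 members tested, the median log2 change was 0.03 for RNA, 0.14 for RPF and 0.12 for TE, beside -0.04, 0.02 and 0.06 over all genes.

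Levels between members need at least a division by length. They are given as RNA values per kb of annotated transcript and RPF values per kb of coding sequence. RNA differences between the tables followed the G+C content of the transcript, as described below. Whether RNA levels and ratios between members within a line also depend on it was not tested. On the RPF scale NUDT21 was the highest member in every line, at 106 ± 0.75 (SD, n = 2) in MDA-Par, 142 ± 16.6 in MDA-LM2, 22.4 ± 1.56 in sgControl and 37.0 ± 0.35 in sgHNRNPC. In sgControl its replicates overlapped those of CSTF1, at 22.2 ± 7.20, and in the other lines they lay apart from the next member. PCF11 was the lowest in every line, at 6.26 ± 2.28, 7.01 ± 1.66, 1.66 ± 0.12 and 1.82 ± 0.16, apart from CPSF1, the next lowest, each time. In MDA-Par the order from the top was NUDT21, CPSF6, CSTF1, CPSF2, CSTF2, CSTF3, CPSF4, CPSF3, CPSF1 and PCF11. CPSF6 overlapped CSTF1 (63.7 ± 11.5 and 61.4 ± 6.58), CSTF3 overlapped CPSF4 (37.8 ± 5.70 and 30.4 ± 7.92) and CPSF4 overlapped CPSF3 (29.98 ± 1.58). The subunits of CPSF thus ranged from 17.0 ± 4.39 for CPSF1 to 52.6 ± 0.18 for CPSF2 in the same cells.

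On the RNA scale the order differed between the tables. In MDA-Par it ran from CPSF4 (316 ± 51.9 per kb), CPSF6 (242 ± 1.42), CPSF1 (195 ± 5.41), CSTF2 (160.1 ± 3.44), CSTF1 (135 ± 11.4) and NUDT21 (129 ± 1.98) to PCF11 (45.4 ± 0.49), CPSF2 (40.7 ± 0.64), CSTF3 (36.7 ± 3.41) and CPSF3 (25.1 ± 5.74). Only CSTF1 and NUDT21 overlapped as neighbours in that order. In sgControl it ran from CPSF6 (205 ± 3.55), NUDT21 (192 ± 7.25), CPSF3 (92.5 ± 1.87), CSTF3 (92.2 ± 7.60), CSTF1 (81.7 ± 1.02) and CPSF2 (75.5 ± 2.06) to CPSF4 (71.2 ± 5.31), CSTF2 (66.5 ± 1.11), PCF11 (40.3 ± 2.12) and CPSF1 (37.2 ± 1.28). CPSF3 overlapped CSTF3 and CPSF2 overlapped CPSF4 in that order. Dividing RNA by coding length in place of transcript length moved 36 of 40 levels by more than 1 SD. The coding sequence is shorter than the transcript, so this division raises every level. The size of the rise depends on the untranslated length, which differs widely between the members.

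**Figure D3:**
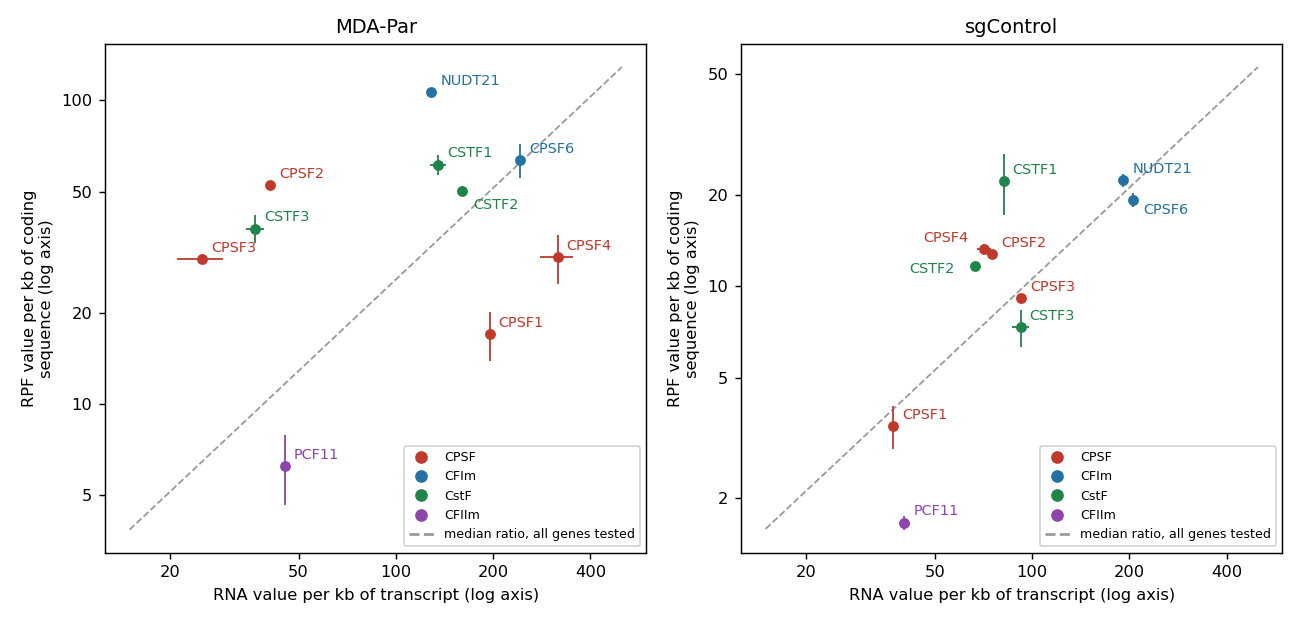
RPF value per kb of coding sequence against RNA value per kb of transcript on log axes for the 10 members in MDA-Par (left) and sgControl (right), coloured by complex. Points are means of 2 replicates, lines join the replicates, and the dashed line is the median ratio of all genes tested. NUDT21 was highest and PCF11 lowest on the RPF axis in both lines, and CPSF3 and CSTF3 lay above the dashed line in MDA-Par and below it in sgControl.

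The RPF level over the RNA level, both per length, was set against the median gene tested in the same line. In MDA-Par it was 5.02 times the median gene for CPSF2, 4.64 for CPSF3, 4.01 for CSTF3 and 3.21 for NUDT21, and 0.34 for CPSF1, 0.37 for CPSF4 and 0.54 for PCF11. The corresponding ratios in sgControl were 1.60, 0.93, 0.75 and 1.11 for the former and 0.88, 1.76 and 0.39 for the latter. These ratios depended on the length used for RNA. With RNA per coding length, the ratios in MDA-Par were 1.90 for CPSF2, 8.86 for CPSF3, 6.45 for CSTF3, 1.05 for NUDT21, 0.69 for CPSF1, 0.35 for CPSF4 and 0.69 for PCF11. In sgControl they were 0.59, 1.73, 1.18, 0.35, 1.74, 1.59 and 0.48 in that order. CSTF1 and CSTF2 were above the median gene and PCF11 below it in both lines with either length. CPSF4 lay below the median gene in MDA-Par and above it in sgControl with either length, although both are MDA-MB-231 cells.

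The RNA values of several members differed between the tables. CPSF3 RNA was 56.8 on average in MDA-Par and 209 in sgControl, and CSTF3 RNA 103 and 259. CPSF1 RNA was 873 and 167, and CPSF4 RNA 577 and 129.8. The log2 difference of sgControl minus MDA-Par was 1.86 for CPSF3 and 1.32 for CSTF3, and -2.38 for CPSF1 and -2.14 for CPSF4. For RPF the differences of the 10 members lay between -2.29 and -1.13, beside medians over all genes of -1.93 for RPF and -0.49 for RNA. CPSF4, at -1.13, was the member farthest above the RPF median. Across the 4189 genes tested in both tables and matched to the annotation, the RNA difference correlated with the G+C content of the transcript at r = -0.83 and the RPF difference at r = -0.08. Over the 10 members the RNA correlation was r = -0.85, with G+C content from 37.0% for NUDT21 to 62.3% for CPSF1. These are descriptions across genes of libraries that share their table, and the tables were normalised separately. The cause was not tested, and levels and TE values of the members are not comparable between tables. The RNA orders and RPF-to-RNA ratios of members within a line were not corrected for G+C content and may carry the same difference.

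**Figure D4:**
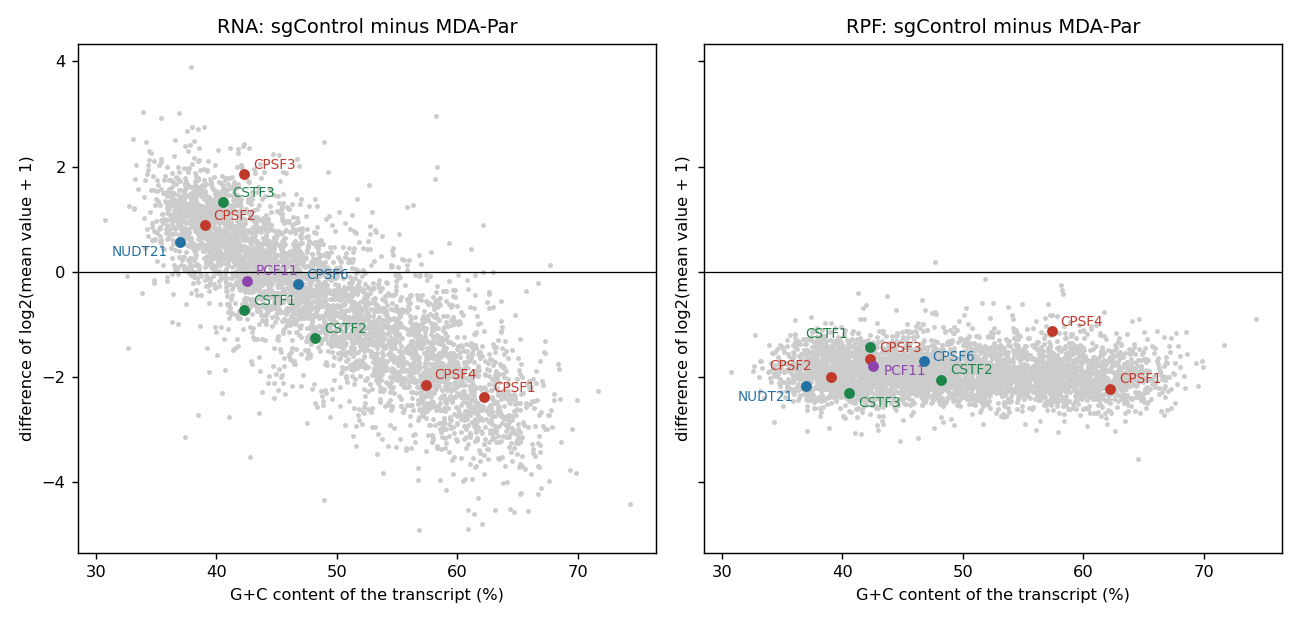
Difference of log2(mean value + 1) between sgControl and MDA-Par against the G+C content of the transcript in percent for RNA (left) and RPF (right). Grey points are the 4189 genes tested in both tables and coloured points the 10 members. RNA differences fell with G+C content (r = -0.83), from 0.58 for NUDT21 to -2.38 for CPSF1, and RPF differences did not follow it to the same degree (r = -0.08).

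Other genes of 3′ end formation were read from the same fits. Of 14 other core factors, 14 were tested in MDA-LM2 and 10 in the knockdown pair. CSTF2T, a paralogue of CSTF2 with the same role in CstF, was the only core factor called in MDA-LM2. That is 1 of 14 in RNA, beside 15.2% of all genes tested, and 1 of 14 in RPF, beside 12.0%. Its RNA was 228 and 257 in MDA-Par and 361 and 409 in MDA-LM2 (0.66 ± 0.13, adjusted p = 0.0180), and its footprints were 103 and 84.9 against 141 and 135 (0.55 ± 0.14, adjusted p = 0.00692). Both kinds of library were higher in MDA-LM2 without overlap. The RNA call was lost without MDA-Par replicate 1 (adjusted p = 0.170) and the RPF call without MDA-Par replicate 2 (adjusted p = 0.110). The TE of CSTF2T was not called, nor that of any other core factor (0 of 14 at an unadjusted p under 0.05, beside 5.42% of all genes). After HNRNPC knockdown, 1 core factor was higher and 1 lower in RNA among the 10 tested, beside 16.0% of all genes called. CPSF7, the alternative large subunit of CFIm, was 377 and 381 in sgControl and 428 and 469 in sgHNRNPC (0.24 ± 0.08, adjusted p = 0.0360). PPP1CB, a catalytic subunit of protein phosphatase 1, was 1725 and 1689 against 1556 and 1557 (-0.13 ± 0.05, adjusted p = 0.0460). The CPSF7 call was lost without sgControl replicate 1 (adjusted p = 0.112), sgControl replicate 2 (0.0781) or sgHNRNPC replicate 2 (0.390), and the PPP1CB call without any one of the 4 libraries (adjusted p from 0.0841 to 0.216). Equal totals also ended the CPSF7 call (0.0636), and quantile normalisation (0.130) and voom (0.167) the PPP1CB call. No core factor was called in RPF or TE of the knockdown. There 2 of 10 and 0 of 10 reached an unadjusted p under 0.05, beside 7.68% and 7.75% of all genes.

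The Integrator complex cleaves snRNAs and many short nascent transcripts, and its endonuclease INTS11 is a paralogue of CPSF3. Of its 14 listed subunits, 14 were tested in MDA-LM2 and 8 in the knockdown pair. INTS11 RNA was 1232 and 1185 in MDA-Par and 895 and 872 in MDA-LM2 (-0.45 ± 0.11, adjusted p = 0.0312), and its footprints were 106 and 115 against 79.2 and 74.7 (-0.52 ± 0.15, adjusted p = 0.0176). INTS11 was lower in both kinds of library without overlap, and its RNA call was lost under equal totals (adjusted p = 0.0870) and quantile normalisation (adjusted p = 0.0633). INTS1, the large scaffold subunit, had lower RNA in MDA-LM2 (1738 and 1721 against 1189 and 1144, -0.57 ± 0.11, adjusted p = 0.0143) and in sgHNRNPC (178 and 186 against 127 and 144, -0.42 ± 0.13, adjusted p = 0.0166). Footprints on INTS8 (25.0 and 43.8 against 61.4 and 59.4) and on INTS14 (13.4 and 12.1 against 33.0 and 27.7) were higher in MDA-LM2, by 0.85 ± 0.22 and 1.19 ± 0.31 (adjusted p = 0.00942 and 0.00768). These were the Integrator calls in RNA and RPF, and none was made in TE. An unadjusted TE p under 0.05 was reached by 1 of 14 subunits in MDA-LM2, beside 5.42% of all genes. In the knockdown it was reached by 0 of 8, beside 7.75%. The MDA-LM2 RNA calls of INTS1 and INTS11 were lost without either MDA-Par replicate (adjusted p from 0.172 to 0.408). The INTS11 RPF call was lost without MDA-Par replicate 2 (0.114) or MDA-LM2 replicate 2 (0.0950), that of INTS8 without MDA-Par replicate 1 (0.45, adjusted p = 0.242, against 1.24 without MDA-Par replicate 2) and that of INTS14 without MDA-LM2 replicate 1 (0.106). The knockdown call of INTS1 was lost without sgControl replicate 2 (0.0875) or sgHNRNPC replicate 1 (0.194). Of 14 subunits tested in MDA-LM2, 2 were called lower in RNA, beside 15.2% of all genes called. In RPF 2 were called higher and 1 lower, beside 12.0%. Of 8 tested in the knockdown, 1 was called lower in RNA, beside 16.0%.

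Of 7 termination factors tested in MDA-LM2, 1 was called in RNA, beside 15.2% of all genes, and none in RPF or TE. None of the 6 tested in the knockdown pair was called. An unadjusted TE p under 0.05 was reached by 1 of 7 in MDA-LM2, beside 5.42% of all genes. In the knockdown pair 1 of 6 reached it, beside 7.75%. RPRD1A, which binds the C-terminal domain of RNA polymerase II, had RNA at 359.9 and 348 in MDA-Par and 494 and 464 in MDA-LM2 (0.44 ± 0.11, adjusted p = 0.0432), a call lost without MDA-Par replicate 1 (0.328) or replicate 2 (0.359). None of the 3 histone pre-mRNA 3′ end factors tested in MDA-LM2, nor the 1 tested in the knockdown pair, was called. None of the 3 U1 snRNP proteins, which cover cryptic poly(A) sites, was called in either comparison. Lists this short would hold few calls at the shares of all genes called. These shares were 15.2% in RNA and 12.0% in RPF of MDA-LM2, and 16.0% and 0.0233% in the knockdown pair. Across the histone and U1 lists, 1 gene reached an unadjusted p under 0.05, in RNA of MDA-LM2, where 31.8% of all genes did.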

How the data were processed

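Ribosome footprints and total RNA were sequenced from the same lysates of each line. Per the submitters' processing notes, reads were handled with cutadapt 2.3, UMI-tools, Bowtie2 2.3.5 and SAMtools on hg38. Each value is a linear signal that the authors made from reads on 1 mRNA per gene with a median-of-ratios size factor. RNA and RPF libraries were handled apart. The paper's methods allow RPF counts to be smoothed and corrected for ribosome stalling first. Whether this was done for these RPF values is not stated, and it would bear on their spread and on TE. The annotation version behind the mRNA set is not given in the sources used here. RNA values are whole multiples of 1 step per library, which gave the reads. RPF values fall on no step, so their depth is unknown and no interval needing it was computed.

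Transcript identifiers were matched to GENCODE version 44 (97.9% in each table). Sample titles gave the line, library type and replicate number. An equal number was taken to join RNA with footprints of a lysate within a line, which the titles do not state. Deviations from the line means of libraries joined in this way correlated at 0.02 in MDA-Par and 0.14 in MDA-LM2. In sgControl and sgHNRNPC the correlations were -0.0083 and 0.00028. The members, lists and tests were chosen with earlier results of these data known. Named genes were all members, HNRNPC, and genes of 5 lists where called. Genes with a mean of at least 10 in the RNA and RPF libraries were tested with limma 3.58.1 in R 4.3.3 on log2(value + 1), with empirical Bayes moderation and a trend, two-sided, with Benjamini-Hochberg adjustment over all genes tested. A fold change on this scale understates the change of low genes. RNA and RPF were each fitted within 4 libraries, and TE as the interaction in all 8 of a table, which share an estimate of the spread. Errors of log2 changes are standard errors. Other listed transcripts shared at most 0.43% of the 50-base stretches of a member, and CSTF2T shared 0.68% of the 30-base coding stretches of CSTF2. Only exact matches were counted, and copies that are not listed were not examined. Alternatives were other pseudocounts, filters, scalings, a replicate block, logistic regression, voom and leaving out each library. The fits were also run on simulated counts with known changes. The simulated libraries had the same fixed dispersion for RNA and RPF and no trend with base composition. They are therefore no check of the fits under the conditions of the real libraries. Python 3.11.15, numpy 2.4.6, pandas 2.3.3, scipy and matplotlib 3.10.9 were used for summaries and figures.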

Additional observations from a re-analysis of the deposited data

How the results depend on the processing

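Of 540 alternatives run for the members' changes, 487 kept direction and side of the threshold, 4 lost a call, 11 gained one and 38 changed sign, none of the last from a called value. In MDA-LM2 RNA, 1 member was called, and 2 under equal totals (CPSF1 added), 0 with a minimum mean of 50 (CPSF4 then untested) and 0 to 4 when a library was left out. It was 0 without MDA-Par replicate 1, beside 5.86% of all genes, and 4 of 10 without MDA-LM2 replicate 1 or replicate 2, beside 50.5% and 33.7% of all genes. In MDA-LM2 RPF, the count of 1 became 2 under equal totals (NUDT21 added, adjusted p = 0.0444) and 0 to 1 when a library was left out. In the knockdown, RNA calls rose from 0 to 1 with quantile normalisation and 2 with voom on recovered reads, chosen after seeing the data, and TE calls from 0 to 1 at an unadjusted p under 0.01.

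Small changes turned sign with the scaling or test. Equal totals gave 0.063 for PCF11 RNA and -0.055, -0.11 and -0.066 for the TE of CSTF1, CPSF2 and CSTF3 in MDA-LM2. Quantile normalisation gave -0.0085 for CPSF2 TE in MDA-LM2, and 0.029 for CSTF3 RNA and -0.035 for CSTF1 TE in the knockdown. Voom gave 0.027 for CSTF3 RNA and 0.0033 for CSTF2 RNA, and logistic regression -0.0018 for CSTF1 TE, in the knockdown. The causes were not tested.

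Leaving out each library in MDA-LM2 moved RNA from -0.43 to 0.86 for CPSF3, -0.044 to 0.22 for CPSF6 and -0.092 to 0.34 for NUDT21. RPF moved from -0.058 to 0.30 for CPSF3 and -0.18 to 0.55 for PCF11. TE moved from -0.026 to 0.037 for CPSF2, -0.92 to 0.73 for CPSF3, -0.023 to 0.83 for CPSF4, -0.16 to 0.28 for CSTF1, -0.17 to 0.034 for CSTF2, -0.011 to 0.11 for CSTF3 and -0.065 to 0.65 for PCF11. In the knockdown, RNA moved from -0.11 to 0.043 for CSTF2 and -0.092 to 0.086 for CSTF3. RPF moved from -0.27 to 0.17 for CPSF1, -0.71 to 0.29 for CPSF2 and -0.18 to 0.47 for CSTF1. TE moved from -0.047 to 0.47 for CPSF1, -0.85 to 0.19 for CPSF2 and -0.28 to 0.34 for CSTF1.

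The labels do not say that replicate numbers pair the lines, and the main fits did not use the number. Deviations of the same number correlated at 0.23 for RNA and 0.04 for RPF between MDA-LM2 and MDA-Par. In the knockdown pair these were -0.0038 and 0.028. The RNA libraries of MDA-LM2 and MDA-Par thus shared a part of their spread by number. With the replicate block, 1 member was called in RNA and 1 in RPF of MDA-LM2, and calls over all genes went from 1279 to 1775 for RNA. The SE of the CPSF3 RNA change went from 0.40 to 0.24, and the limma adjusted p of CPSF4 RNA from 0.0234 to 0.0060. Calls over all genes for RNA in MDA-LM2 ranged from 492 to 4235 when a library was left out, and for TE they went from 3 to 181 with logistic regression. Taking TE within the lysate, a block that joins the RNA and RPF libraries of a number, left 0 TE calls over all genes in MDA-LM2 and changed no member's call. The planned count-model tests were not run, and voom on the recovered RNA reads was run in their place. A minimum mean of 50 left no member to test in the knockdown. CPSF4 and PCF11 had knockdown footprints too low to be tested, and the depth of the footprint libraries is unknown.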
